A study of Homo sapiens with 12 samples.

Results

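The genes of the MYC, MAX and MXD network were followed across a lymphoma line with and without stimulation of its B cell receptor. The network was taken as MYC, MAX, MXD1, MXD3, MXD4, MXI1, MNT, MGA and MLX, matched by gene symbol on chromosomes 1 to 22. These are 9 of the 60675 genes in the deposited table, and all 9 passed the filter on low counts. RNA came from U-2932, a human line of diffuse large B cell lymphoma, that stably expressed the RNA-binding protein Roquin2. One line carried wild-type Roquin2 (WT) and the other carried the Y691F form, in which a phenylalanine replaces a tyrosine. Each line was either left untreated or stimulated for 12 h with 10 µg/ml of F(ab')2-IgM, an antibody fragment against IgM that engages the B cell receptor, and each of the 4 groups held 3 biological replicates. The comparison between the lines addresses how expression of the mutant Roquin2 affects mRNA levels. Every group carries an introduced Roquin2, so none shows the cells without a construct, and the sources used here do not say how many independently derived lines carried each form. Whether the spread between replicates includes that between independently made lines is therefore not known.

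MYC is a basic helix-loop-helix leucine zipper factor that binds DNA only as a heterodimer with MAX, mostly at E-boxes, and raises transcription of genes for growth, ribosome production and metabolism. MXD1, MXD3, MXD4, MXI1, MNT and MGA compete for MAX and repress the same kind of site, the MXD proteins and MNT by recruiting the SIN3 and histone deacetylase corepressors. MLX is a MAX-like protein that pairs with the glucose-sensing Mondo proteins and also with MXD1, MXD4 and MNT. In B cells MYC is known as an early gene of antigen receptor signalling, and it is frequently deregulated in lymphoma.

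The libraries held 16465393 to 21478790 counts. RC3H2, which encodes Roquin2, stood at 111 ± 1.08 and 121 ± 1.80 CPM (the count as a share of the library's total, scaled by TMM factors, mean ± SD, n = 3) in WT without and with IgM. In Y691F the level was 209 ± 0.880 and 206 ± 1.79 CPM. The level counted on RC3H2 was thus higher in the line with the mutant form, and the part of that difference in the results below was not tested. The sources used here do not say whether reads of the introduced Roquin2 were counted on RC3H2. The summed level of 7 B cell markers ran from 4146 to 5421 CPM. Of 9 T and NK cell markers 8 were under 1 CPM in every library, with 3 at 0, and of 7 myeloid markers 6 were, with 3 at 0. Of 9 fibroblast and epithelial markers 5 were under 1 CPM in every library, with 1 at 0, and their summed level was 20.7 to 27.2 CPM.

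MYC mRNA responded to IgM in opposite directions in the lines. MYC (ENSG00000136997, chromosome 8, 127735434 to 127741434, plus strand, GRCh38) stood at 11.5, 12.2 and 12.5 CPM in the 3 untreated WT libraries and at 20.2, 18.7 and 18.2 CPM after IgM. In Y691F it stood at 18.3, 20.5 and 18.2 CPM without and at 16.3, 15.3 and 14.1 CPM with IgM. Untreated WT was the lowest group, untreated Y691F and stimulated WT covered the same range, and stimulated Y691F lay between them without touching any other group. These values rest on 217 to 398 counts per library. With IgM, MYC rose 1.58-fold in WT (log2 0.66, SE 0.08, adjusted p = 3.56e-12) and fell 1.24-fold in Y691F (log2 -0.31, SE 0.07, adjusted p = 1.05e-04). The difference between these responses was -0.97 on the log2 scale (SE 0.11, 95% interval -1.19 to -0.76, adjusted p = 3.99e-12). Without IgM, MYC was 1.57-fold higher in Y691F than in WT (log2 0.65, SE 0.08, adjusted p = 1.41e-11). With IgM it was lower in Y691F by 1.25-fold (log2 -0.32, SE 0.08, adjusted p = 3.17e-04). In bulk RNA a change in the number of cells with MYC mRNA and a change in mRNA per cell cannot be told apart.

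**Figure D1:**
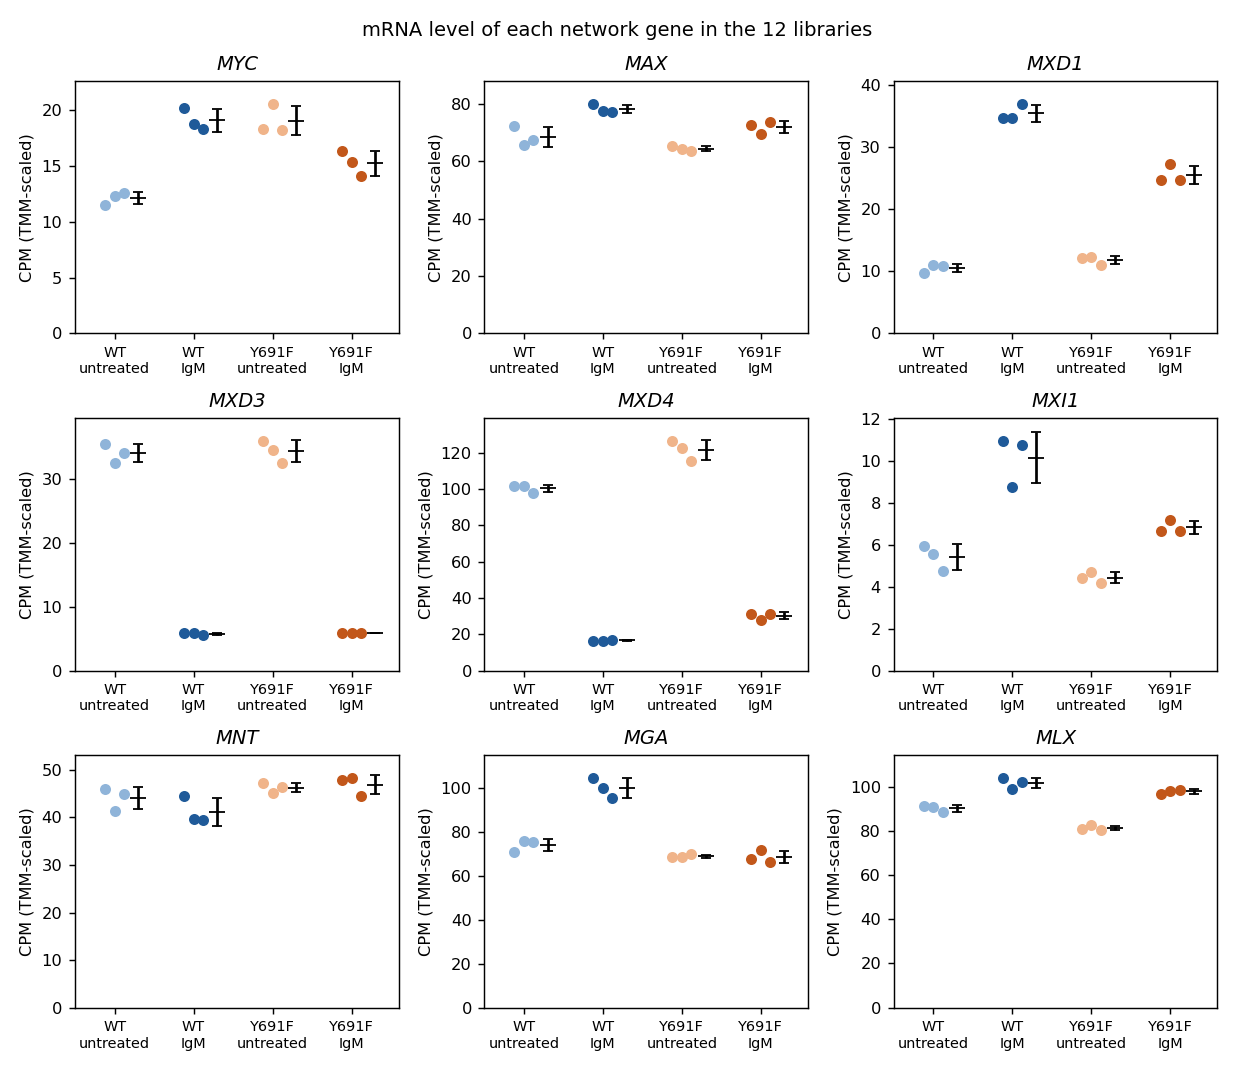
Level of each network gene in every library, in TMM-scaled CPM on axes that start at 0. Points are libraries and the bar beside them is the mean ± SD (n = 3). MYC rises with IgM in WT and falls in Y691F, MXD3 drops to about the same level in both lines, and MXD4 stays higher in stimulated Y691F than in stimulated WT.

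MAX, the shared partner, moved little. MAX (ENSG00000125952, chromosome 14, 65006174 to 65102695, minus strand) stood at 72.1, 65.5 and 67.4 CPM in untreated WT and at 79.9, 77.3 and 77.2 CPM in stimulated WT. Y691F libraries gave 65.4, 64.2 and 63.5 CPM without and 72.7, 69.6 and 73.6 CPM with IgM. Stimulated libraries lay above untreated ones within each line, without overlap. The log2 change with IgM was 0.19 in WT (SE 0.04, adjusted p = 1.96e-05) and 0.16 in Y691F (SE 0.04, adjusted p = 4.45e-04). Neither call held when libraries were scaled by their totals only, with 0.061 in WT (adjusted p = 0.171) and a turned sign in Y691F (-0.010, adjusted p = 0.833). That scaling lowered the median change of all genes with IgM to -0.13 in WT and -0.18 in Y691F, from 0.0016 and -0.011. With IgM, MAX was lower in Y691F than in WT (log2 -0.12, SE 0.04, adjusted p = 0.0150), a call that was absent in 4 of 14 alternatives. Among these were the fits without replicate 1 of stimulated WT (adjusted p = 0.101) and without replicate 2 of stimulated Y691F (adjusted p = 0.164). The responses of MAX in the lines differed by -0.035 (95% interval -0.15 to 0.082).

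MLX, the partner of the Mondo proteins, also shifted by small amounts. MLX (ENSG00000108788, chromosome 17, 42567068 to 42573239, plus strand) stood at 91.3, 90.7 and 88.4 CPM in untreated and at 104, 98.97 and 102 CPM in stimulated WT. In Y691F it stood at 80.9, 82.5 and 80.4 CPM without and at 96.7, 98.0 and 98.6 CPM with IgM. The untreated Y691F libraries were the lowest, and no pair of groups overlapped in CPM, although the stimulated groups came as close as 98.6 and 98.97 CPM. By edgeR the stimulated lines gave no call (log2 -0.055 in Y691F against WT, adjusted p = 0.244). The difference between the IgM responses was not called either (0.096, adjusted p = 0.185). With IgM, MLX rose by 0.17 in WT (SE 0.04, adjusted p = 2.73e-05) and by 0.27 in Y691F (SE 0.04, adjusted p = 9.60e-10) on the log2 scale. Scaled by library totals only, the WT value was 0.037 (adjusted p = 0.361). Without IgM, MLX was lower in Y691F by 1.11-fold (log2 -0.15, SE 0.04, adjusted p = 7.57e-04).

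The 4 MXD genes divided into a pair that rose (MXD1 and MXI1) and a pair that fell (MXD3 and MXD4) with IgM in both lines, where 38.4% of all tested genes rose and 38.5% fell in WT. Their promoter windows from RefSeq (GRCh38.p14, 250 bases before to 50 after the transcript start) are shown for the gene with the strongest rise and the pair that fell, since E-boxes are where the network's own proteins bind. Capitals mark the E-box CACGTG, which reads the same on both strands.

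MXD4: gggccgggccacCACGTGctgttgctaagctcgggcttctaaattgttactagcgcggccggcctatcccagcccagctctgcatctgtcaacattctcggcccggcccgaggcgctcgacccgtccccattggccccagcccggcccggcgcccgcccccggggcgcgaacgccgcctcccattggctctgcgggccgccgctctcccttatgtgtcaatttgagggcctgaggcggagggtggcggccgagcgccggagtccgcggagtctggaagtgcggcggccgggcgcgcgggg

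MXD3: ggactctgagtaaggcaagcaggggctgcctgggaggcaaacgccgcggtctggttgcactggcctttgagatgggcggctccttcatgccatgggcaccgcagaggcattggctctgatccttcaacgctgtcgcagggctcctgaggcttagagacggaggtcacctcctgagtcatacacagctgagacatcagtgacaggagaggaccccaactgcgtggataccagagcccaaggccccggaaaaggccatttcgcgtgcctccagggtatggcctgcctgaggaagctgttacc

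MXD1: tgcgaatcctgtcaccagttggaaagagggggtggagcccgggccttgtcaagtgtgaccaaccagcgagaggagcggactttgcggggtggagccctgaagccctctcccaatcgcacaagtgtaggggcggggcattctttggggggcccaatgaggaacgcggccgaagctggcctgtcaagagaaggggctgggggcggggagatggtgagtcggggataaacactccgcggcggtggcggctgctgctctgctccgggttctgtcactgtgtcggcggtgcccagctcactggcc

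The MXD4 window (chr4:2262060-2262359, minus strand) holds CACGTG beginning 238 bases before the start. The MXD3 window (chr5:177312703-177313002, minus strand) and the MXD1 window (chr2:69914859-69915158, plus strand) hold none, and the MXD3 window holds the related E-box CACGCG in 1 place, counting both strands. The RefSeq start of MXD1 lies inside the gene as the deposited table bounds it, so this window is not at the table's gene start. The genes other than MYC were looked up, and 8 of 8 matched, with 13 windows in all, of which 3 hold CACGTG. The other two windows with the motif belong to MNT (chr17:2401011-2401310, minus strand, 193 bases before the start) and MLX (chr17:42566850-42567149, plus strand, 50 bases before the start). Their E-boxes stand in these stretches of 30 bases.

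MNT: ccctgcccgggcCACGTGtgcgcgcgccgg

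MLX: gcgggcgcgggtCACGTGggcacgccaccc

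Among all 35116 RefSeq promoter windows of the same length, 7.26% hold CACGTG and 11.4% hold CACGCG. A match describes the letters only, and binding was not measured.

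MXD1, which encodes a repressor known to rise as cells differentiate, was the network gene with the strongest rise. MXD1 (ENSG00000059728, chromosome 2, 69897688 to 69942945, plus strand) stood at 9.80, 10.9 and 10.9 CPM in untreated and at 34.6, 34.7 and 36.9 CPM in stimulated WT. The Y691F libraries held 12.1, 12.4 and 11.1 CPM without and 24.7, 27.2 and 24.7 CPM with IgM. All stimulated libraries lay above all untreated ones, and those of Y691F stayed below those of WT. The rise was 3.35-fold in WT (log2 1.74, SE 0.07, adjusted p = 2.45e-38) and 2.16-fold in Y691F (log2 1.11, SE 0.07, adjusted p = 5.63e-25). The response was smaller in Y691F on the log2 scale (difference -0.63, SE 0.10, adjusted p = 6.95e-07). With IgM, MXD1 was lower in Y691F than in WT by 1.38-fold (log2 -0.47, SE 0.06, adjusted p = 5.47e-10), and without IgM the difference of 0.17 was not called (adjusted p = 0.129).

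MXI1 encodes another MAX-binding repressor and was the member with the fewest counts, 83 to 183 per library. MXI1 (ENSG00000119950, chromosome 10, 110207605 to 110287365, plus strand) stood at 5.94, 5.56 and 4.76 CPM in untreated and at 11.0, 8.75 and 10.8 CPM in stimulated WT. In Y691F it stood at 4.42, 4.71 and 4.18 CPM without and at 6.67, 7.19 and 6.65 CPM with IgM. Each stimulated group lay above its untreated group, with stimulated WT the highest. MXI1 rose 1.86-fold in WT (log2 0.89, SE 0.11, adjusted p = 9.44e-12) and 1.54-fold in Y691F (log2 0.63, SE 0.12, adjusted p = 4.01e-06). The responses differed by -0.27, with a 95% interval from -0.60 to 0.064 (adjusted p = 0.253). With IgM, MXI1 was lower in Y691F by 1.48-fold (log2 -0.56, SE 0.11, adjusted p = 7.32e-06). Without IgM the difference of -0.30 was not called (adjusted p = 0.0635) but was called without replicate 3 of untreated WT (-0.37, adjusted p = 0.0316).

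MXD3, a member of the family known from proliferating cells, dropped to the same level in both lines. MXD3 (ENSG00000213347, chromosome 5, 177301461 to 177312757, minus strand) stood at 35.5, 32.6 and 34.1 CPM in untreated and at 5.87, 5.89 and 5.55 CPM in stimulated WT. Y691F libraries gave 36.0, 34.6 and 32.5 CPM without and 5.89, 5.90 and 5.83 CPM with IgM. The lines overlapped in both states, and the treated and untreated libraries were far apart. The fall was 5.89-fold in WT (log2 -2.56, SE 0.08, adjusted p = 5.17e-46) and 5.85-fold in Y691F (log2 -2.55, SE 0.08, adjusted p = 2.14e-46). The difference between the responses was 0.0095, with a 95% interval from -0.25 to 0.27.

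MXD4, the most abundant MXD gene of untreated cells, fell about as far as MXD3 in WT but kept a higher level in Y691F. MXD4 (ENSG00000123933, chromosome 4, 2247432 to 2262294, minus strand) stood at 102, 101 and 98.0 CPM in untreated and at 16.5, 16.5 and 17.0 CPM in stimulated WT. In Y691F the values were 126, 123 and 115 CPM without and 31.0, 27.9 and 31.4 CPM with IgM. No groups overlapped, and Y691F was above WT in both states. The fall was 6.03-fold in WT (log2 -2.59, SE 0.05, adjusted p = 2.80e-60) and 4.04-fold in Y691F (log2 -2.01, SE 0.05, adjusted p = 1.27e-56), a difference of 0.58 (SE 0.08, adjusted p = 1.03e-09). Between the lines MXD4 was 1.21-fold higher in Y691F without IgM (log2 0.27, SE 0.04, adjusted p = 2.76e-09). With IgM it was 1.81-fold higher (log2 0.85, SE 0.06, adjusted p = 3.13e-20).

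MNT, a broadly expressed antagonist of MYC, gave no call with IgM in either line. MNT (ENSG00000070444, chromosome 17, 2384060 to 2401118, minus strand) stood at 45.9, 41.4 and 44.8 CPM in untreated and at 44.5, 39.6 and 39.4 CPM in stimulated WT. The Y691F libraries held 47.2, 45.2 and 46.4 CPM without and 47.8, 48.2 and 44.6 CPM with IgM. Within each line the treated and untreated libraries overlapped. The log2 change with IgM was -0.095 in WT (95% interval -0.20 to 0.0073, adjusted p = 0.0860) and 0.020 in Y691F (95% interval -0.078 to 0.12, adjusted p = 0.719). With library totals only, MNT was called lower in both lines (-0.23 in WT, -0.15 in Y691F, adjusted p = 0.00554 in the latter). In WT it was called in 5 of 14 alternatives. Among these were also the fits without replicate 1 of the stimulated group (-0.16, adjusted p = 0.0122) or replicate 2 of the untreated group (-0.14, adjusted p = 0.0243). With IgM, MNT was 1.14-fold higher in Y691F than in WT (log2 0.19, SE 0.05, adjusted p = 0.00173).

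MGA, a large protein with a T-box and a MAX-binding domain that belongs to a Polycomb complex, responded to IgM in WT. MGA (ENSG00000174197, chromosome 15, 41621224 to 41773081, plus strand) stood at 71.2, 76.2 and 75.3 CPM in untreated and at 105, 100.2 and 95.6 CPM in stimulated WT. In Y691F the values were 68.5, 68.5 and 69.9 CPM without and 68.0, 71.8 and 66.4 CPM with IgM. Stimulated WT stood alone above the other three groups, and the Y691F groups overlapped. MGA rose 1.35-fold in WT (log2 0.43, SE 0.04, adjusted p = 8.90e-17), while the value in Y691F was -0.0036 (95% interval -0.087 to 0.080, adjusted p = 0.942). The difference between the responses was -0.44 (SE 0.06, adjusted p = 2.25e-09), and with IgM MGA was 1.46-fold lower in Y691F than in WT (log2 -0.54, SE 0.04, adjusted p = 2.44e-20). With library totals only MGA was called lower with IgM in Y691F (-0.17, adjusted p = 2.10e-04). Without IgM it was called lower in Y691F (-0.11, adjusted p = 0.0374), a call absent in 9 of 14 alternatives, among them those without replicate 2 (adjusted p = 0.185) or 3 (adjusted p = 0.111) of WT and without replicate 1 (adjusted p = 0.0995) or 2 (adjusted p = 0.0799) of Y691F.

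Counted over the network, 6 of the 9 genes rose and 2 fell with IgM in WT, where 76.9% of all 15112 tested genes were called, 38.4% higher and 38.5% lower. In Y691F 4 rose and 3 fell, where 75.8% were called, 37.1% higher and 38.7% lower, so that in both lines the share of members called was near that of all genes. With library totals only the split was 4 higher and 3 lower in WT and 3 higher and 5 lower in Y691F. Between the lines, the stimulated cells differed in 7 members, 2 higher and 5 lower in Y691F, where 42.1% of all genes were called, and 2 were higher and 2 lower without IgM, where 31.2% were. For the untreated lines the split under that scaling was 2 higher and 1 lower. The log2 responses themselves differed for 4 members, where 25.7% of all genes were called. The difference, Y691F minus WT, was negative for MYC, MXD1 and MGA and positive for MXD4, whose fall was smaller in Y691F. The median log2 change of the 9 members was 0.19 with IgM in WT and 0.020 in Y691F, beside 0.0016 and -0.011 over all tested genes. Between the lines it was -0.12 with IgM and 0.016 without, beside -0.0049 and -0.0078 over all tested genes. The IgM responses of the lines share no libraries, whereas each comparison between lines shares its libraries with a response.

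**Figure D2:**
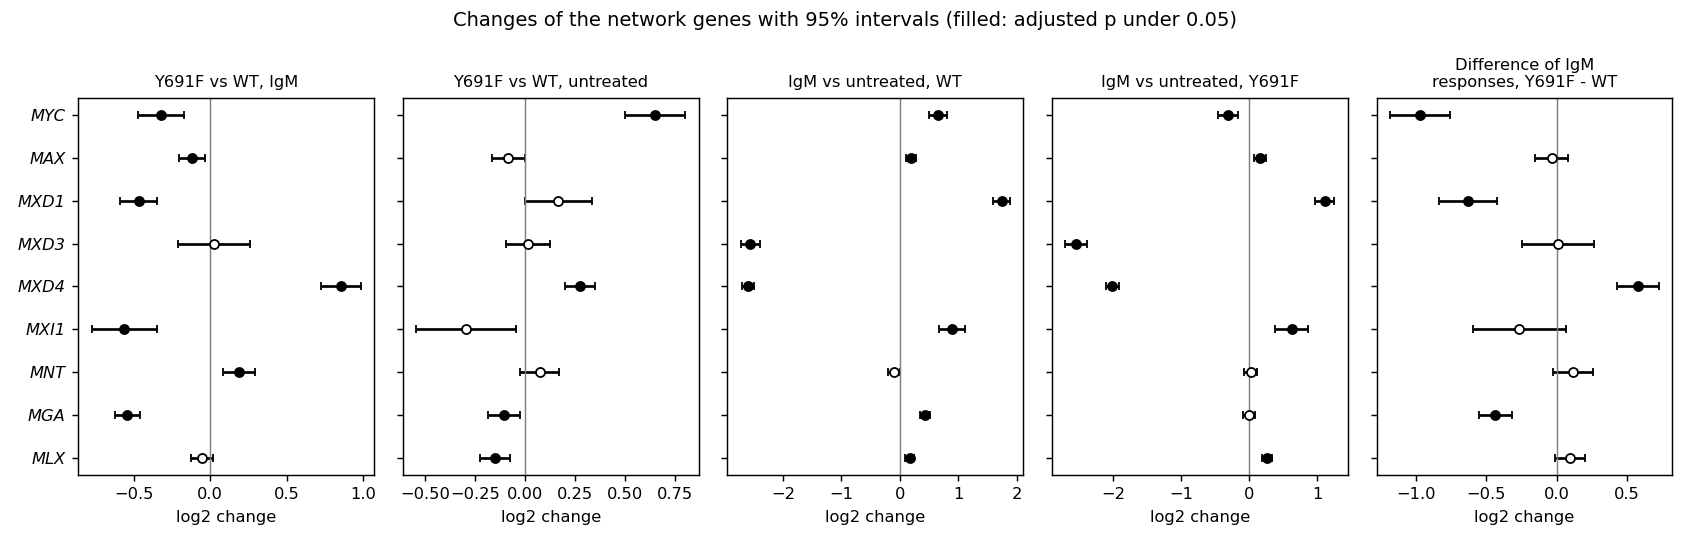
Log2 change of each network gene in the 5 comparisons with 95% intervals from edgeR's quasi-likelihood fit, and filled symbols where the adjusted p is under 0.05. The axes differ between panels. The difference of the IgM responses is called for MYC, MXD1, MXD4 and MGA.

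Levels were compared between genes with the deposited RPKM, which divides by gene length and carries no TMM scaling. In every group MLX was the highest network gene, at 18.0 and 18.5 RPKM in WT and 16.2 and 17.8 RPKM in Y691F without and with IgM. MAX was next at 12.4 to 13.7 RPKM, except in untreated Y691F, where MXD4 (14.7 RPKM) stood above MAX (12.4 RPKM). MAX was in excess over MYC in each group, by 3.84 ± 0.353 and 2.78 ± 0.0942 times in WT without and with IgM and by 2.30 ± 0.160 and 3.22 ± 0.287 times in Y691F. In untreated WT the order below MLX and MAX was MXD4 (12.1), MXD3 (5.63), MNT (4.30), MGA (3.58), MYC (3.43), MXD1 (1.42) and MXI1 (1.002 RPKM), of which the neighbours MGA and MYC overlapped between libraries. In stimulated WT it was MYC (4.92), MGA (4.40), MXD1 (4.32), MNT (3.66), MXD4 (1.83), MXI1 (1.71) and MXD3 (0.868 RPKM), with overlap between MGA and MXD1 and between MXD4 and MXI1. MYC moved from the 7th to the 3rd place with IgM in WT, and MXD3 from the 4th to the 9th. In untreated Y691F the genes below MAX were MXD3 (5.68), MYC (5.39), MNT (4.51), MGA (3.33), MXD1 (1.59) and MXI1 (0.820 RPKM), with MXD3 and MYC overlapping. In stimulated Y691F the order below MAX was MNT (4.16), MYC (3.93), MXD4 (3.31), MXD1 (3.12), MGA (3.02), MXI1 (1.15) and MXD3 (0.883 RPKM). There MNT and MYC overlapped, as did MXD4 with MXD1 and MXD1 with MGA.

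The makeup of the MXD pool changed with IgM in both lines. The summed RPKM of MXD1, MXD3, MXD4 and MXI1 was 20.2 ± 0.225 in untreated and 8.73 ± 0.270 in stimulated WT, and 22.8 ± 1.34 and 8.46 ± 0.0987 in Y691F. MXD4 made up 60.1 ± 0.648% of that sum in untreated WT and 21.0 ± 0.544% in stimulated WT, against 64.4 ± 0.198% and 39.1 ± 2.56% in Y691F. MXD1 went from 7.02 ± 0.543% to 49.5 ± 1.13% in WT and from 6.99 ± 0.183% to 36.9 ± 1.97% in Y691F. In stimulated cells MXD1 was thus the main MXD transcript of WT, while MXD1 and MXD4 held like shares in Y691F. The summed RPKM of the MXD genes, MNT and MGA was 8.19 ± 0.467 times that of MYC in untreated WT, 3.41 ± 0.120 times in stimulated WT, 5.69 ± 0.392 times in untreated Y691F and 3.99 ± 0.252 times in stimulated Y691F. No groups overlapped in this ratio, which was higher in WT without IgM and in Y691F with IgM. These ratios describe mRNA, and the proteins were not measured.

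**Figure D3:**
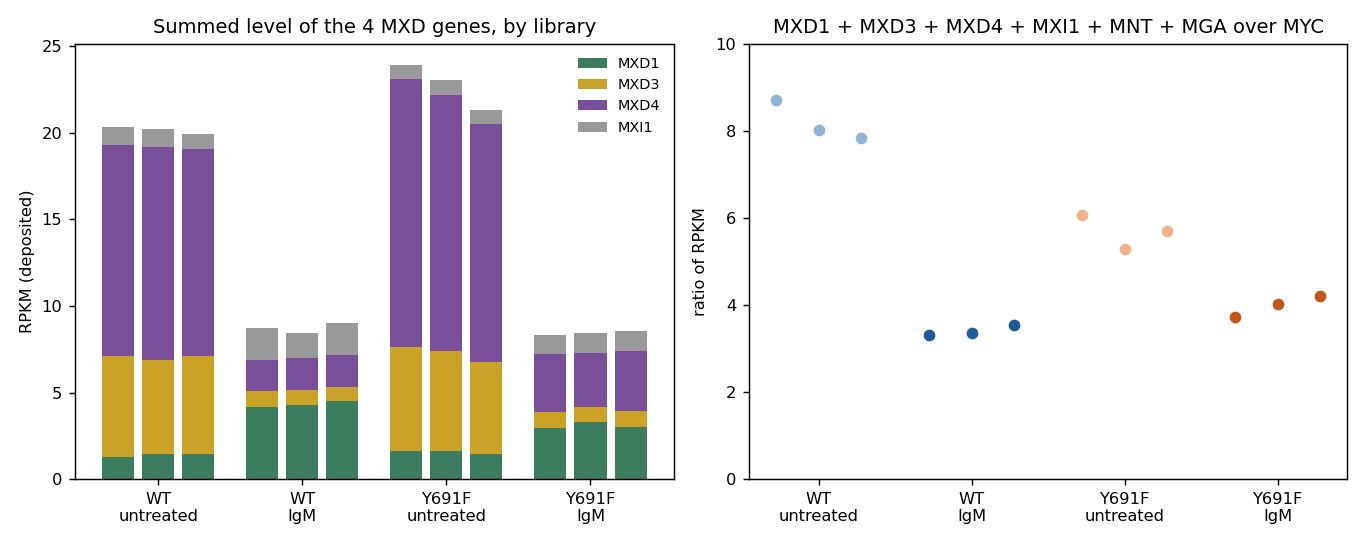
Left, deposited RPKM of the 4 MXD genes stacked for each library (3 bars per group). Right, the summed RPKM of the MXD genes, MNT and MGA divided by that of MYC in each library, on an axis from 0. The MXD sum falls with IgM in both lines, and the ratio to MYC is highest in untreated WT.

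The genes MYC is known to activate rose with IgM in both lines, also in Y691F, where MYC mRNA fell. Of 31 listed genes 30 were tested, and with IgM 27 rose and 3 fell in WT (median log2 change 0.62), and 27 rose and none fell in Y691F (median 0.80). Over all genes, 38.4% rose and 38.5% fell in WT, and 37.1% rose and 38.7% fell in Y691F. NPM1, a nucleolar chaperone, went from 729 to 1622 CPM in WT and from 695 to 1648 CPM in Y691F (log2 1.15 and 1.25). DDX21, a nucleolar RNA helicase, rose by 1.21 and 1.28, and ODC1, which starts polyamine synthesis, by 0.83 and 1.07 in the same order. The response of ODC1 was larger in Y691F by 0.24 (SE 0.04, adjusted p = 2.74e-07). Over the list the difference between the responses, Y691F minus WT, was positive for 13 genes and negative for none, where 14.7% and 11.0% of all genes were called in these directions. Of the 13, all but TERT, APEX1 and TFAP4 rose in both lines, and these fell in WT with no call in Y691F. Both counts of 0 on this list from edgeR were also 0 at an unadjusted p under 0.05, by DESeq2's Wald test and by limma-voom. Under library totals only these counts were 12 and 1, and with IgM 24 genes rose and 3 fell in WT and 26 rose and 2 fell in Y691F. APEX1 (-0.19) and TFAP4 (-0.20) were then called lower in Y691F, and CAD, among others, was not called in WT (-0.041).

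Without IgM the same list stood opposite to MYC between the lines. In untreated Y691F, where MYC was higher, 24 of the 30 genes were lower than in WT and none was higher, with a median log2 difference of -0.14, beside -0.0078 over all genes and 16.1% of all genes called lower. The count of genes higher was also 0 at an unadjusted p under 0.05, by DESeq2 and by limma-voom. With library totals only 21 were called lower. TERT, the catalytic subunit of telomerase, was lower in Y691F, at 2.03 ± 0.407 CPM against 8.26 ± 0.647 CPM in WT (log2 -2.01, SE 0.14, adjusted p = 7.08e-22). LDHA, lactate dehydrogenase A, went from 975 ± 21.3 CPM in WT to 778 ± 27.8 CPM in Y691F (log2 -0.33, SE 0.03, adjusted p = 1.27e-17). With IgM, where MYC was lower in Y691F, 13 of the genes were lower and 6 higher (median -0.077), where 20.2% and 21.9% of all genes were, and 9 were lower by DESeq2's Wald test. PA2G4, a growth-linked nucleolar protein, was lower in Y691F in both states (log2 -0.24 without and -0.25 with IgM), and CAD, the enzyme that starts pyrimidine synthesis, was higher with IgM (0.21, adjusted p = 7.04e-10).

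**Figure D4:**
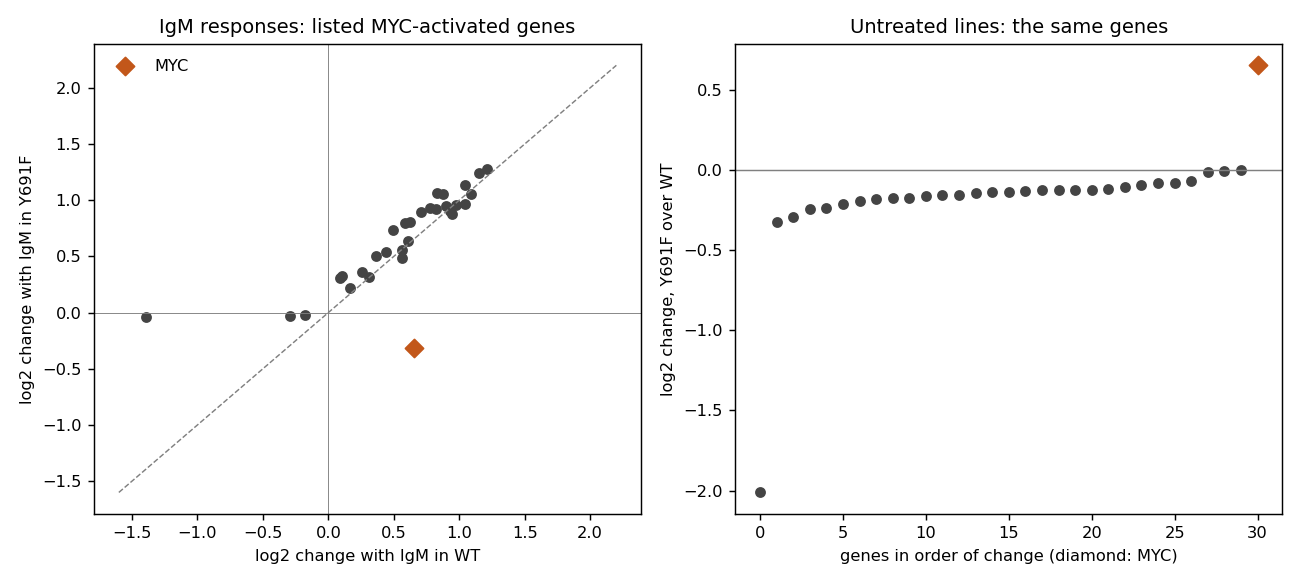
Left, log2 change with IgM in WT and in Y691F for the 30 tested genes of the MYC-activated list (points) and MYC (diamond), with the line of equal change dashed. Right, log2 difference of untreated Y691F over untreated WT for the same genes in order. MYC lies below the dashed line, at 0.66 in WT and -0.31 in Y691F, and above all listed genes in the untreated lines, with TERT the point at -2.01.

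Of the genes MYC is known to repress, 6 of 7 were tested. With IgM, 5 were higher and none lower in Y691F than in WT by edgeR, where 21.9% of all genes were higher. By DESeq2's Wald test 4 were higher. None was lower at an unadjusted p under 0.05, by DESeq2 or by limma-voom. CDKN2B, an inhibitor of the G1 kinases CDK4 and CDK6, stood at 6.84 ± 0.665 CPM in stimulated WT and 15.3 ± 0.851 CPM in stimulated Y691F (log2 1.15, SE 0.10, adjusted p = 9.39e-18). Without IgM it was also higher in Y691F, at 18.4 against 11.7 CPM (log2 0.66, SE 0.08, adjusted p = 5.48e-11). CDKN2B has an antisense gene, and the sources used here do not say whether the counting used strand. CDKN1A, which encodes the cell cycle inhibitor p21, was higher by 0.32 with IgM (adjusted p = 1.51e-13), and the stress gene GADD45A by 0.77 (adjusted p = 3.00e-06). With IgM itself 3 of the list rose and 2 fell in WT, where 38.4% of all genes rose and 38.5% fell. In Y691F 4 rose and 2 fell, where 37.1% and 38.7% did. With library totals only 2 rose and 2 fell in WT and 3 rose and 2 fell in Y691F, as CDKN1B was no longer called. NDRG1, which rose in both lines, averaged only 0.0177 to 0.648 CPM in the groups. The list thus had no common direction. Without IgM 3 were higher and 1 lower in Y691F, where 15.1% and 16.1% of all genes were, and DESeq2's Wald test gave 2 and 0. Of those higher, NDRG1 rests on 0.182 against 0.0177 CPM. The lower gene, CDKN1C, rests on 0.249 against 0.537 CPM, and its libraries overlapped between the lines.

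The factors that read out or remove the network's proteins were mixed. Of 12 coactivators of MYC, 9 rose and 2 fell with IgM in WT, and 8 rose and 2 fell in Y691F, where 38.4% and 37.1% of all genes rose and 38.5% and 38.7% fell. The acetyltransferases EP300 (log2 0.70 in WT and 0.83 in Y691F) and CREBBP (0.70 and 0.88) rose. KAT2A, the acetyltransferase of the SAGA complex, fell (-1.19 and -1.08), as did the helicase RUVBL1 (-0.81 and -0.66). With library totals only the counts were 7 higher and 3 lower in WT and 7 higher and 4 lower in Y691F. Of 9 corepressor genes of the MXD and MNT proteins, 4 rose and 2 fell in WT and 5 rose and 2 fell in Y691F, against 4 and 4, and 2 and 4, with library totals only. HDAC1, a histone deacetylase of the SIN3 complex, fell by 0.54 and by 0.46, and SAP18 of the same complex rose by 0.34 and 0.40. Between the untreated lines 4 corepressor genes were lower in Y691F, where 16.1% of all genes were, and 3 with library totals only. None was higher by edgeR, at an unadjusted p under 0.05, by DESeq2 or by limma-voom.

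Among 13 genes for turnover of MYC protein, 5 rose and 8 fell with IgM in WT, where 38.4% of all genes rose and 38.5% fell. In Y691F 5 rose and 3 fell, where 37.1% rose and 38.7% fell, and with library totals only the counts were 4 and 8 in each line. USP36, a nucleolar deubiquitinase of MYC, went from 141 to 366 CPM in WT and from 133 to 308 CPM in Y691F (log2 1.38 and 1.21). FBXW7, the ubiquitin ligase subunit that targets phosphorylated MYC, also rose (0.80 and 0.73). SKP2, another ligase subunit, fell (-1.03 and -0.90). Thus genes on the stabilising and on the degrading side both rose.

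Of 9 partners of MGA in its Polycomb complex, 5 rose and 3 fell with IgM in WT and 4 rose and 2 fell in Y691F (3 and 3, and 3 and 4, with library totals only). Of all genes 76.9% and 75.8% were called in these comparisons. RYBP, a subunit that stimulates histone H2A ubiquitination, went from 18.9 to 64.2 CPM in WT and from 17.9 to 52.0 CPM in Y691F (log2 1.77 and 1.54). Between the stimulated lines 2 of the 9 partners were higher and 4 lower in Y691F, where 21.9% and 20.2% of all genes were. With IgM, YAF2, a relative of RYBP, was lower in Y691F than in WT, as MGA was (log2 -0.59, SE 0.08, adjusted p = 2.30e-09). TFDP1, the partner of E2F proteins, was higher by 0.22 (adjusted p = 3.58e-10).

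The other MYC and Mondo genes stood at low levels apart from MLXIP. MYCN and MLXIPL did not pass the filter on low counts, and MYCL averaged 0.134 to 0.566 CPM in the groups. On these few counts edgeR called MYCL lower with IgM in WT (log2 -1.21, adjusted p = 0.0211) and in Y691F (log2 -2.01, adjusted p = 4.70e-04). DESeq2's Wald test gave no call for it in WT. MLXIP, which encodes the MLX partner MondoA, had means of 102 and 100.2 CPM in WT without and with IgM, against 87.5 and 88.9 CPM in Y691F, and was lower in Y691F in both states (log2 -0.22 and -0.17, adjusted p = 1.22e-06 and 1.06e-04). Its change with IgM was -0.021 in WT and 0.022 in Y691F, with no call, although with library totals only it was called lower in both (-0.16 and -0.15). Of 3 listed genes that MLX activates with Mondo proteins, 2 rose and 1 fell with IgM in each line. Of all genes 38.4% rose and 38.5% fell in WT, and 37.1% rose and 38.7% fell in Y691F. All 3 listed genes were lower in stimulated Y691F than in stimulated WT, where 20.2% of all genes were lower. By DESeq2's Wald test 2 of the 3 were lower, and ARRDC4 rests on 0.567 and 1.09 CPM. TXNIP, an inhibitor of glucose uptake, fell from 13.1 to 6.69 CPM in WT and from 12.2 to 5.01 CPM in Y691F (log2 -0.98 and -1.28). KLF10, a zinc finger repressor, rose by 1.45 and 1.18, a response smaller in Y691F by 0.27 (difference -0.27, SE 0.06, adjusted p = 1.34e-04).

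The genes whose levels followed those of each member most closely were sought among 10685 tested genes by the distance between centred log2 CPM over the 12 libraries, as a description that shares all libraries. For MYC the nearest gene was IRF5, an interferon regulatory factor of B cells (distance 0.39, Pearson r 0.92), at 19.8 and 30.3 CPM in WT and 26.9 and 24.0 CPM in Y691F without and with IgM. It was thus lowest in untreated WT, as MYC was. SPRY1, FZD6, ZNF775 and IGF2BP3 came next, at distances of 0.48 to 0.56. Near MXD1 lay BTG2 (0.30), an antiproliferative gene. The nearest genes to MXD3 were TCF19 (0.33) and NLRP11 (0.39), and to MXD4 REC8 (0.21), a meiotic cohesin, and SYTL3 (0.32). REC8 went from 196 to 30.6 CPM in WT and from 217 to 54.1 CPM in Y691F, so that it also kept a higher level in stimulated Y691F. MGA was nearest to ABI2 (0.21) and POLK (0.22), MXI1 to PARP9 (0.43) and PEA15 (0.44), and MNT to PDHB (0.16) and C22orf29 (0.19). MAX was nearest to DEDD (0.071), and MLX to RPS20 (0.089) and PRELID1 (0.094). Genes that move little over the libraries lie near many others by this measure.

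Some members overlap other genes, and the sources used here do not say whether shared reads were split or assigned by strand. MXD3 overlaps PRELID1 on the opposite strand (221 to 294 CPM) and RAB24 on its own strand (group means of 7.82 to 14.1 CPM). With IgM, MXD3 fell in both lines while PRELID1 rose by 0.16 in WT and 0.27 in Y691F, and RAB24 fell by 0.50 and 0.37. MXD1 overlaps SNRNP27 on the same strand (17.3 to 24.5 CPM), which rose by 0.17 and 0.33, less than MXD1. MAX overlaps FNTB and MLX overlaps PSMC3IP, both on the opposite strand, and these fell with IgM (FNTB by 0.79 and 0.39, PSMC3IP by 0.96 and 1.03). MYC overlaps no other gene of the table.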

How the data were processed

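Polyadenylated RNA was sequenced with strand marking in 12 libraries, per the labels' protocols. The authors deposited whole-number read counts and RPKM per Ensembl gene, per the file headers. STAR 2.5.0b, DESeq2 and GRCh38 stand in the submitters' processing notes, while which program counted reads, and on which gene annotation, is not stated in the sources used here. Counts were tested with edgeR 4.0.16 (R 4.3.3): filterByExpr kept 15112 genes, TMM scaled the libraries, and 1 quasi-likelihood fit over all 4 groups, without a replicate term, gave 5 comparisons, with Benjamini-Hochberg adjustment over all tested genes and a threshold of 0.05. The script was tested on simulated data. Common biological variation was 2.51%. Log2 changes use edgeR's fit, and intervals are 95%. Levels between genes used the deposited RPKM, since the file gives no length. The lengths behind RPKM were proportional to the GENCODE union exon lengths for all 9 members. Members and lists were chosen with earlier results of these data known. All members are named, and of each list up to 4 genes with the smallest adjusted p, plus genes on which a result turns. Similar patterns were taken as the 5 genes nearest to MYC and the 2 nearest to each other member, with a mean of at least 1 CPM. Some genes that these rules select are not reported here. Alternatives were DESeq2 1.42.0 (Wald test and size factors), limma-voom (limma 3.58.1), library totals, other filters, a replicate block, only the groups compared, and each library left out.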

Additional observations from a re-analysis of the deposited data

Results flagged for a closer look

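The IgM response differed between the lines for 28 of the network and listed genes named, by the interaction term of edgeR's quasi-likelihood test with Benjamini-Hochberg adjustment. Of all tested genes 25.7% were called. Listed genes were named partly by their adjusted p in this same comparison, so the count of 28 cannot be set against that share. Values are the log2 response in Y691F minus that in WT. Among the network genes the difference was -0.97 for MYC, -0.63 for MXD1, -0.44 for MGA and 0.58 for MXD4. Of the MYC-activated genes, the difference was 0.24 for ODC1, 0.18 for LDHA (adjusted p = 1.39e-04), 0.22 for CAD (adjusted p = 5.29e-06) and 1.36 for TERT (adjusted p = 5.58e-06), which fell with IgM in WT from 8.26 to 3.14 CPM and stood at 2.03 and 1.99 CPM in Y691F. It was 0.16 for APEX1 (adjusted p = 0.00454) and 0.26 for TFAP4 (adjusted p = 0.00749). Of the MYC-repressed genes it was 0.35 for CDKN1A (adjusted p = 1.81e-08), 0.49 for CDKN2B (adjusted p = 0.00186) and 0.59 for GADD45A (adjusted p = 0.00273).

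Among the corepressor genes the difference was 0.20 for NCOR1 (adjusted p = 2.09e-04). Of the 12 coactivators 4 were called with a positive and 1 with a negative difference, where 14.7% and 11.0% of all genes were. These were 0.28 for HCFC1 (adjusted p = 1.25e-07), 0.18 for CREBBP (adjusted p = 0.00112), 0.15 for RUVBL1 (adjusted p = 0.00460), 0.13 for EP300 (adjusted p = 0.0133) and -0.15 for TRRAP (adjusted p = 0.00711). Of the 13 turnover genes 4 were positive and 1 negative, beside the same shares of all genes. Among them were AURKA with 0.39 (adjusted p = 7.53e-09), GSK3B with 0.33 (adjusted p = 1.09e-05), PPP2R5A with 0.30 (adjusted p = 1.37e-05) and USP36 with -0.17 (adjusted p = 0.00198). In the Polycomb complex of MGA, TFDP1 gave 0.23 (adjusted p = 1.14e-06), CBX3 0.19 (adjusted p = 0.0152), RYBP -0.23 (adjusted p = 0.0288) and YAF2 -0.60 (adjusted p = 3.02e-05). KLF10 gave -0.27. Scaled by library totals only, EP300 (0.096, adjusted p = 0.0721) and CBX3 (0.15, adjusted p = 0.0567) were no longer called.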

How the results depend on the processing

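Of 675 values of the network genes under alternative settings, 637 kept their direction and side of the threshold, 15 lost a call, 7 gained one and 16 changed sign. Under library totals only, the IgM change in Y691F turned to -0.010 for MAX and -0.15 for MNT, the latter called lower. The other sign changes were of values near 0 that were called in neither setting. They were MNT with IgM in Y691F under the 5 CPM filter (-0.034), MGA with IgM in Y691F under DESeq2 size factors (0.0026), DESeq2's Wald test (0.0063), no filter (0.0047) and leaving out each library in turn (-0.033 to 0.018), the MXD3 difference of responses under the 5 CPM filter (-0.0013), library totals only (-0.026) and leaving out each library (-0.029 to 0.043), and MXD3 between the untreated lines on leaving out each library (-0.018 to 0.054). The differences of the IgM responses kept their calls for MYC, MXD1, MXD4 and MGA in all 19 alternatives. No shared effect of the replicate number was seen: deviations of same-numbered libraries correlated between -0.13 and 0.17, and 3 of 12 libraries correlated best with their own number. This cannot show whether libraries with the same number were prepared together. With the replicate block the members called numbered 8 and 7 with IgM in WT and Y691F, 7 and 4 between the lines with and without IgM, and 4 for the difference, as without it. MXI1, with 83 to 183 counts per library, and MXD3 in stimulated cells, with 87 to 110, are the least precise.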
